A study of Homo sapiens with 12 samples.

Results

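RSAD2 and CMPK2 are neighbouring genes on human chromosome 2 that type I interferon switches on. They were taken from the deposited tables by their gene identifiers, ENSG00000134321.13 for RSAD2 and ENSG00000134326.12 for CMPK2, and are 2 of the 60649 genes listed and 2 of the 18119 that passed the filter on low counts. They were selected on their levels in the repeat and acute libraries, because both ended higher after a second interferon pulse than after a first. Values of these 2 genes that involve the repeat libraries are therefore descriptions, from which no test is read. The acute libraries entered the choice too, so p-values of the pair for comparisons with acute cells are not independent of it. Recovery against vehicle compares neither of these groups.

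Expression was measured by RNA sequencing in AC16, a human line labelled as ventricular cardiomyocytes, wild type by genotype, in 4 groups of 3 libraries that the design text calls independent biological replicates. The interferon was recombinant human IFN-α2a at 1000 U/mL, and vehicle was phosphate-buffered saline. In the repeat regimen a 24 h pulse, an interferon-free gap of 4 days and another 24 h pulse followed each other. The recovery regimen was 1 pulse of 24 h and then 5 interferon-free days. The acute regimen was a single 24 h pulse with immediate harvest. Vehicle cells carry a 24 h label and acute cells were harvested after their 24 h pulse. Repeat and recovery therefore differ from vehicle and from acute also in the labelled time in culture. For repeat cells the stated times add to 6 days while a label gives harvest on day 7. Each library held between 39.9 and 62.3 M estimated counts (1 M is 1000000).

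Type I interferon binds IFNAR1 and IFNAR2, and the kinases JAK1 and TYK2 then activate a transcription factor complex with STAT2 and IRF9 that binds interferon-stimulated response elements, short DNA stretches built on GAAA repeats. RSAD2 encodes viperin, a radical S-adenosylmethionine (SAM) enzyme with an iron-sulfur cluster that turns CTP into ddhCTP, a nucleotide that ends the RNA chains of some viruses. CMPK2 encodes a mitochondrial kinase that phosphorylates UMP, CMP and their deoxy forms, a step on the way to CTP. The next enzymes on that route are nucleoside diphosphate kinases such as NME4.

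In GENCODE release 44 on GRCh38, CMPK2 lies on the minus strand at chr2:6840570-6866635 with 7 annotated transcripts, and RSAD2 lies on the plus strand at chr2:6865557-6898239 with 9. The gene spans overlap by 1079 bases. They share 351 exon bases on opposite strands, which is 6.20% of the exon bases of RSAD2 and 8.00% of those of CMPK2. The libraries were stranded, but whether counting used the strand is not given in the sources used here, so reads from the shared bases may not be separable. Of the RSAD2 transcripts, 6 start beside the starts of CMPK2, while RSAD2-201 starts at position 6877777, 11870 bases from the start of CMPK2-201. The pair is thus head to head, with 2 annotated start regions for RSAD2.

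**Figure D1:**
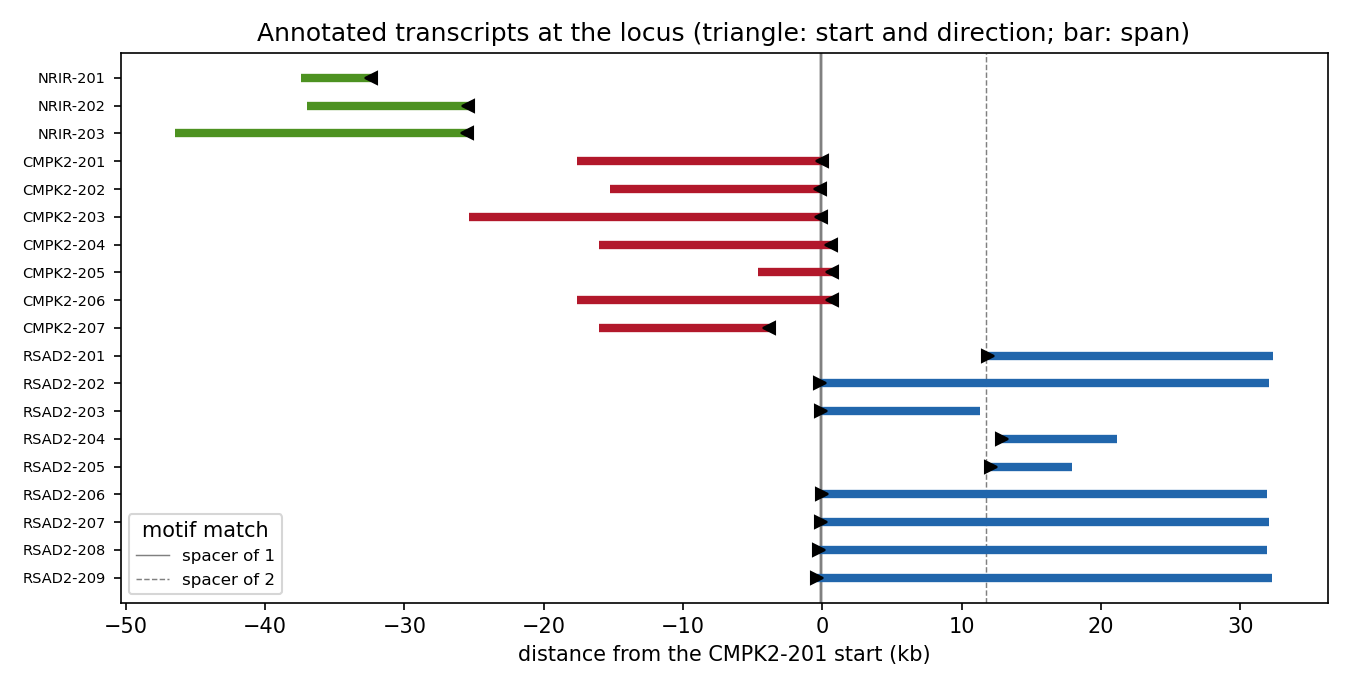
Spans of the annotated transcripts of NRIR, CMPK2 and RSAD2, plotted against the distance in kb from the start of CMPK2-201, with triangles at transcription starts and vertical lines at motif matches. The 4 matches with a spacer of 1 base crowd at the shared start region, and the match with a spacer of 2 bases lies by the start of RSAD2-201.

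Promoter windows (RefSeq, GRCh38.p14, 250 bases before to 50 bases after a start) were searched on both strands for a core of the response element, GAAANNGAAA, and for the tighter repeat GAAANGAAA, overlaps allowed. The tighter repeat was added after these windows had been read, so its count describes them only. The windows below are shown because they hold the matches by which the 2 start regions differ. Capitals mark the GAAA units, written TTTC where the match is on the other strand.
RSAD2, start region shared with CMPK2, chr2:6865635-6865934, plus strand: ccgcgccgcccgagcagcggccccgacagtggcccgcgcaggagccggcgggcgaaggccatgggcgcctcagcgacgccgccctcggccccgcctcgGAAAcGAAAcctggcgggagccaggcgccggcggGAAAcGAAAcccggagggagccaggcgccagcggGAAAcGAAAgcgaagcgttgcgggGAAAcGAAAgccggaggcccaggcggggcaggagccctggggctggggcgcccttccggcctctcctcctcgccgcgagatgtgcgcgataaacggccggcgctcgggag
CMPK2, start at 6865819, chr2:6865770-6866069, minus strand: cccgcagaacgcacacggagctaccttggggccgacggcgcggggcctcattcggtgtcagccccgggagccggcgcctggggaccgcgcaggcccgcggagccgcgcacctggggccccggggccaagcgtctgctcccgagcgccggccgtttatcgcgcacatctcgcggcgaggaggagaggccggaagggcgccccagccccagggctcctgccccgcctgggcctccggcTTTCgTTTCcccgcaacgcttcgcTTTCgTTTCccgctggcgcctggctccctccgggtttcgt
RSAD2, downstream start region, chr2:6877527-6877826, plus strand: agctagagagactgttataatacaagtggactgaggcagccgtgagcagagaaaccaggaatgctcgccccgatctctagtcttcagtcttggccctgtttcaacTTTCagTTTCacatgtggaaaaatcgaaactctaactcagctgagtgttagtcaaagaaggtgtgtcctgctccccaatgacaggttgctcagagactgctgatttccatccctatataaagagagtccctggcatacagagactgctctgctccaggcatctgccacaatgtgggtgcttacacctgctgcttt
The RSAD2 window in the shared region held 4 matches to GAAANGAAA, at -152 to -144, -118 to -110, -84 to -76 and -60 to -52 from its start. The CMPK2 window held 2 matches, and both are sites of the RSAD2 window read from the other strand, chr2:6865801-6865809 and chr2:6865825-6865833. The downstream RSAD2 window held 1 match to GAAANNGAAA, at -145 to -136. Of 34943 windows, 3.12% held GAAANGAAA and 3.57% held GAAANNGAAA, and 1 held 4 or more of the tighter repeat. The other CMPK2 windows, with starts at 6865907 and 6866635, held 0 matches. A match is a run of letters and not a measured binding site.

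Both genes were near silent without interferon, high after each pulse and low again after interferon-free days. RSAD2 gave 1689, 1860 and 1514 estimated counts in repeat cells, 113, 78 and 114 in recovery cells, 934, 596 and 774 in acute cells, and 24, 14 and 17 in vehicle cells. As CPM (counts per 1000000, scaled by TMM for library size), RSAD2 stood at 31.1, 30.1 and 31.2 in repeat, 2.53, 1.69 and 2.34 in recovery, 16.6, 15.1 and 18.03 in acute, and 0.420, 0.317 and 0.368 in vehicle. The 4 groups do not overlap, and the order from high to low is repeat, acute, recovery, vehicle. Repeat above acute is the property the gene was chosen for. How many of all genes separate likewise was not counted, so nothing is read from the lack of overlap.

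CMPK2 gave 1645, 1873 and 1492 estimated counts in repeat cells, 49, 40 and 63 in recovery cells, 1188, 818 and 930 in acute cells, and 17, 10 and 12 in vehicle cells. Its CPM was 30.3, 30.3 and 30.7 in repeat, 1.10, 0.866 and 1.29 in recovery, 21.2, 20.7 and 21.7 in acute, and 0.298, 0.226 and 0.260 in vehicle. The order of the groups is the one seen for RSAD2, and again no 2 groups overlap, with the same limits. Per transcript length the genes were alike in level: in TPM (the authors' values scaled by length and library), RSAD2 averaged 11.1 ± 0.788 in repeat, 0.551 ± 0.0578 in recovery, 5.89 ± 0.535 in acute and 0.0883 ± 0.0120 in vehicle (SD, n = 3 each). CMPK2 averaged 11.7 ± 0.190 TPM in repeat, 0.392 ± 0.194 in recovery, 7.92 ± 0.316 in acute and 0.0857 ± 0.0481 in vehicle (SD, n = 3 each).

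**Figure D2:**
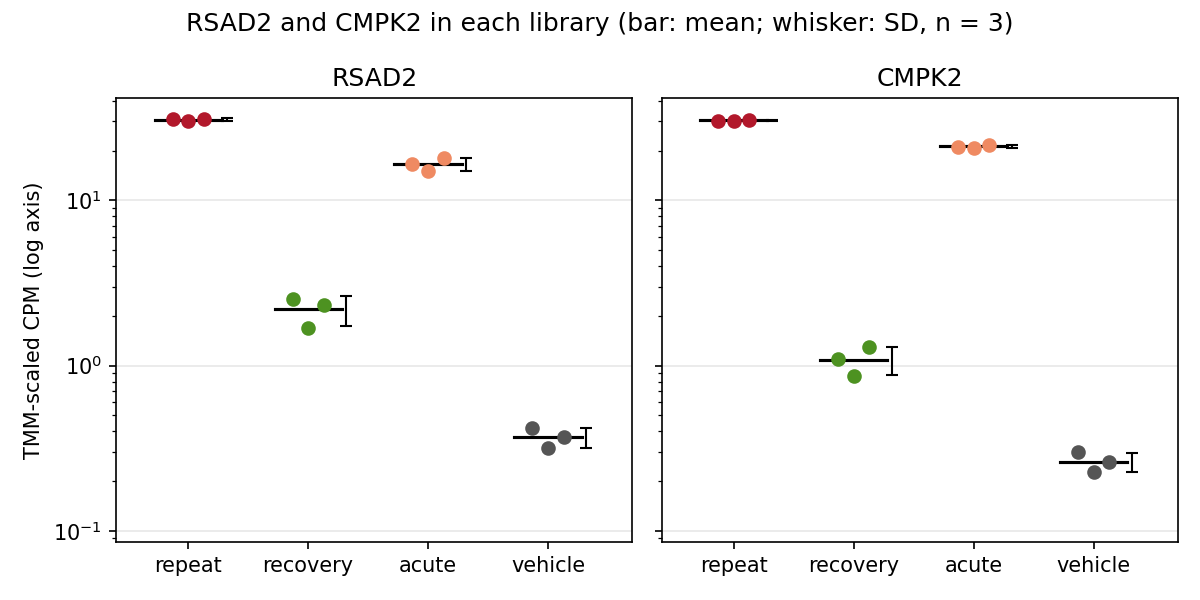
TMM-scaled CPM of RSAD2 and CMPK2 in each of the 12 libraries on a log axis, with points for libraries, bars for means and whiskers for the SD. Both genes run from about 30 CPM in repeat cells to under 1 CPM in vehicle cells, with recovery cells between acute and vehicle.

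The first pulse raised both genes far above vehicle. RSAD2 was 44.2-fold higher in acute than in vehicle cells (log2 fold change 5.47 ± 0.214 SE, adjusted p = 3e-21, edgeR quasi-likelihood F test over 18119 genes, n = 3 against 3). CMPK2 was 79.3-fold higher (6.31 ± 0.204 SE, edgeR adjusted p = 3.75e-27). By size of the rise they ranked 23rd and 19th of 18119. Of all genes tested, 22.3% were called higher and 21.5% lower in this comparison at an adjusted p under 0.05, so that a call by itself was common. The median log2 fold change over all genes was 0.00. The vehicle libraries held 94 counts of the pair in all, which limits the precision of these folds.

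After 5 days without interferon both had fallen, CMPK2 further than RSAD2. Recovery cells had 7.59-fold less RSAD2 than acute cells (log2 fold change -2.92 ± 0.105 SE, edgeR adjusted p = 1.82e-18). CMPK2 was 19.4-fold lower in recovery than in acute cells (-4.28 ± 0.110 SE, edgeR adjusted p = 1.24e-25). In this comparison 20.7% of all genes were called lower.

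Neither gene was back at the vehicle level. RSAD2 remained 5.83-fold above vehicle in recovery cells (log2 fold change 2.54 ± 0.229 SE, edgeR adjusted p = 4.24e-09). CMPK2 remained 4.09-fold above vehicle (2.03 ± 0.227 SE, edgeR adjusted p = 8.57e-08). Only 3.03% of all genes were called higher in recovery than in vehicle cells and 2.91% lower. By size of the fold change over all 18119 genes RSAD2 ranked 22nd and CMPK2 34th. Among the called genes RSAD2 had the 4th and CMPK2 the 8th highest fold change. The interferon-stimulated genes MX2, OAS1 and OAS2 were 2nd, 6th and 9th, at 2.89 ± 0.430, 2.23 ± 0.200 and 1.86 ± 0.066 (log2 ± SE), and the other 4 of the first 8 were the antisense gene TMEM108-AS1 and 3 genes without a symbol. The call of CMPK2 was lost on log2 TPM (limma, 1.35, adjusted p = 0.067), where CMPK2 read 0.444, 0.177 and 0.555 TPM in recovery and 0.062, 0.141 and 0.054 TPM in vehicle cells. A pseudocount of 0.1 TPM was added there, more than the vehicle mean of 0.0857 TPM, which shrinks folds over vehicle. Fewer responding cells and less RNA per cell cannot be told apart in bulk libraries, and neither can recovery and time in culture as labelled.

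As a share of the first-pulse rise in CPM, 11.2% of that of RSAD2 and 3.94% of that of CMPK2 was left in recovery cells. The median over the 62 genes that rose at least 8-fold in acute cells was 1.28%. RSAD2 ranked 10th and CMPK2 20th of the 62, and HLA-F, a class I histocompatibility gene, stood just above RSAD2 at 12.2%.

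After the second pulse both genes stood above their level after the first, the property they were chosen for. Repeat and acute cells differ also in labelled time in culture, which cannot be told apart from the number of pulses. Repeat cells averaged 30.8 ± 0.622 CPM of RSAD2 against 16.6 ± 1.47 CPM in acute cells (SD, n = 3 each). The fitted value was 1.85-fold, or 0.89 ± 0.062 on the log2 scale (SE). CMPK2 averaged 30.4 ± 0.274 CPM in repeat cells against 21.2 ± 0.481 CPM in acute cells (SD, n = 3 each), and the fitted value was 1.44-fold, or 0.52 ± 0.048 on the log2 scale (SE). Of the 62 genes that rose at least 8-fold in acute cells, RSAD2 had the highest and CMPK2 the 3rd highest repeat-over-acute value, the median of the 62 was 0.01 on the log2 scale, and 32 of them were above 0. The gene between the pair, CGB5, was below 1 CPM in every group mean and its value of 0.81 had an SE of 0.60. The antiviral genes OAS1 and MX2 had values of 0.40 ± 0.027 and 0.28 ± 0.052 (log2 ± SE), and HLA-F 0.34 ± 0.058. Of all genes, 1.77% were called higher and 2.43% lower in repeat than in acute cells, from which nothing is read about the pair.

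As a fold over the level before each pulse the second step was the smaller one, and as a difference in CPM it was the larger one. In CPM the means of repeat minus recovery were 28.6 for RSAD2 and 29.3 for CMPK2, against 16.2 and 20.9 for acute minus vehicle. Repeat cells exceeded recovery cells by 3.81 ± 0.102 for RSAD2 and 4.80 ± 0.109 for CMPK2, and the second-pulse response minus the first-pulse response was -1.65 ± 0.238 for RSAD2 and -1.51 ± 0.232 for CMPK2 (log2 ± SE). On log2 TPM it was -0.88 for RSAD2 and -0.79 for CMPK2. The pseudocount of 0.1 TPM used there exceeds the vehicle means of 0.0883 and 0.0857 TPM and so shrinks the first step. The recovery libraries stand in here for the state before the second pulse, although they had 5 interferon-free days and the repeat cells 4. Against vehicle, repeat cells were higher by 6.36 ± 0.213 for RSAD2 and 6.83 ± 0.204 for CMPK2 (log2 ± SE). These last values share libraries with the comparisons above.

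In counts, the share of RSAD2 in the pair was higher in recovery than in acute libraries, while the vehicle interval overlapped that of recovery. On TPM the call changed with the pseudocount and with single libraries left out. RSAD2 made up 50.7%, 49.8% and 50.4% of the counts of the pair in the repeat libraries, 69.8%, 66.1% and 64.4% in recovery, 44.02%, 42.15% and 45.42% in acute, and 58.5%, 58.3% and 58.6% in vehicle. Summed over libraries its share was 50.3% in repeat (exact 95% binomial interval 49.3 to 51.2), 66.7% in recovery (62.2 to 71.0), 43.97% in acute (42.6 to 45.3) and 58.5% in vehicle (47.9 to 68.6). These intervals cover counting error only. In counts, then, RSAD2 had the larger share in recovery libraries and CMPK2 in acute libraries, with repeat libraries close to even. In vehicle libraries RSAD2 was ahead as well, but the interval there includes an even share. A share of counts is not a ratio of transcripts, since it takes no account of length.

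**Figure D3:**
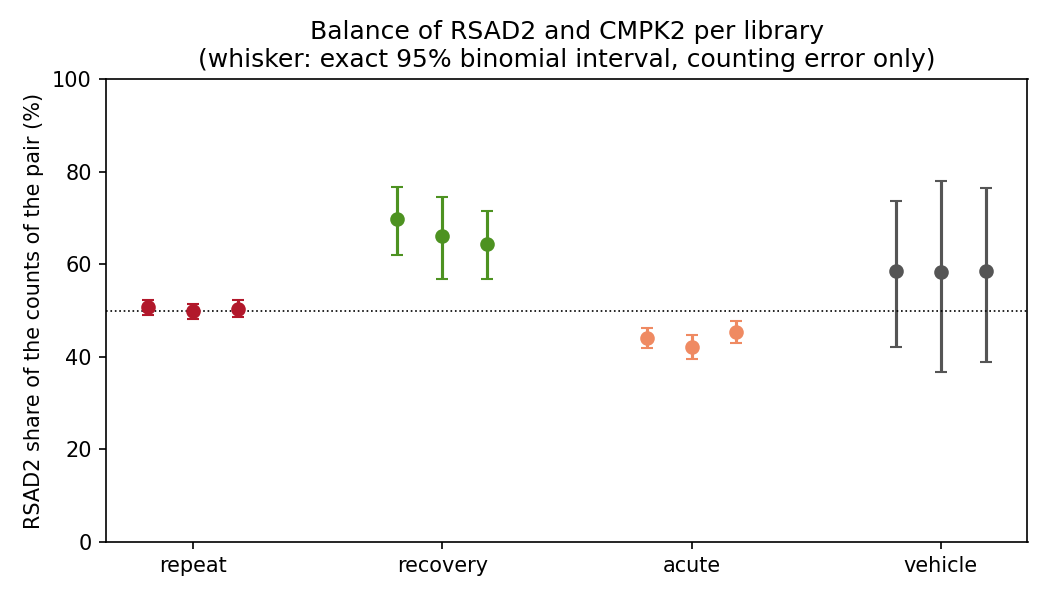
RSAD2 as a percentage of the summed counts of RSAD2 and CMPK2 in each library, with exact 95% binomial intervals as whiskers and a dotted line at 50%. The 3 recovery libraries lie at 64.4% or more and the 3 acute libraries at 45.4% or less, while the vehicle intervals are wide.

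TPM puts both genes on a per-length scale, on which recovery replicate 3 was even, with 0.558 TPM of RSAD2 and 0.555 TPM of CMPK2. The log2 ratio of RSAD2 to CMPK2 (pseudocount 0.1 TPM) averaged -0.07 ± 0.105 in repeat, 0.49 ± 0.551 in recovery, -0.43 ± 0.175 in acute and 0.05 ± 0.435 in vehicle (SD, n = 3 each). The planned test over all 12 libraries includes the repeat libraries on which the genes were selected, so nothing is read from it, and the test was repeated on the 9 recovery, acute and vehicle libraries, a choice made after seeing the data. These 9 still hold the acute libraries, which also entered the choice of the genes. An exact permutation test over all 280 partitions gave p = 0.129 on TPM with a pseudocount of 0.1 TPM and p = 0.0107 with a pseudocount of 1 TPM. A pseudocount of 1 TPM is above every recovery and vehicle TPM value of both genes, the highest being 0.605. It pulls those log2 ratios towards even and shrinks their spread, so no difference in balance is read from the second p. On counts the exact permutation p was 0.00357, the smallest it can give. At a pseudocount of 0.1 TPM, leaving out recovery replicate 3 gave an exact p of 0.0393 and leaving out vehicle replicate 2 one of 0.0429. No pair of groups could pass, since 3 against 3 libraries cannot go below an exact p of 0.1.

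The scales differ by the gene lengths implied by the authors' counts and TPM, which varied between libraries. For RSAD2 the implied length was 2087 to 2391 bases in repeat, 2737 to 3380 in recovery, 2279 to 2295 in acute and 3346 to 3372 in vehicle libraries. It was longer in all recovery and vehicle libraries than in any repeat or acute library, without a test. For CMPK2 it was 2040 to 2152 bases in repeat, 1997, 3885 and 1875 in recovery, 2082 to 2325 in acute, and 3852, 1290 and 3893 in vehicle libraries. With 10 to 63 counts of CMPK2 in the recovery and vehicle libraries, these lengths rest on few reads. The annotated spliced lengths span 569 to 4853 bases for RSAD2 transcripts and 565 to 3095 for those of CMPK2.

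Other head-to-head pairs induced by interferon showed their own balances. PARP9, an ADP-ribosyltransferase family member, and DTX3L, its E3 ligase partner, had a log2 count ratio of -0.42 ± 0.044 in repeat, -1.16 ± 0.082 in recovery, -0.47 ± 0.016 in acute and -1.21 ± 0.055 in vehicle cells (SD, n = 3 each). The ratio of TAP1, a peptide transporter, to PSMB9, an immunoproteasome subunit, was 1.89 ± 0.024 in repeat, 1.83 ± 0.044 in recovery, 2.12 ± 0.012 in acute and 2.07 ± 0.018 in vehicle cells (SD, n = 3 each). The repeat and acute ratios overlapped for PARP9 and DTX3L and did not overlap for TAP1 and PSMB9, nor for RSAD2 and CMPK2, whose mean ratio in counts was 0.02 in repeat against -0.36 in acute cells. Whether the pairs differ in this was not tested. RSAD2 and CMPK2 were chosen on the repeat and acute libraries, and how many gene pairs separate likewise was not counted. Nothing is therefore read from the overlap or its lack. All 4 genes were listed as interferon-stimulated, so their rise in acute over vehicle cells is a description only. By edgeR it was 3.82 for PARP9, 3.08 for DTX3L, 2.92 for TAP1 and 2.87 for PSMB9 on the log2 scale. In recovery over vehicle cells TAP1 at 0.20 ± 0.034 (edgeR adjusted p = 0.000281) and PSMB9 at 0.43 ± 0.058 (edgeR adjusted p = 1.09e-05) were called higher. PSMB9 was the only one of the 4 called in repeat over acute cells, at 0.28 ± 0.034 (edgeR adjusted p = 5.18e-06). Over all genes, 22.3% were called higher in acute over vehicle, 3.03% in recovery over vehicle and 1.77% in repeat over acute cells.

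The genes most like each member were found by the root mean square difference, over the 12 libraries, of log2 CPM minus the vehicle mean, among 16214 genes with a symbol. Each member of the pair was the nearest gene to the other, at 0.53. The 12 libraries include the repeat and acute libraries on which both genes were chosen, so this nearness is a description only. For CMPK2 the lead of RSAD2 over USP18 was slight, at 0.531 against 0.536. For RSAD2 there followed USP41 at 0.95, USP18 at 1.02, OAS3 at 1.08 and the long noncoding RNA BISPR at 1.09. For CMPK2 there followed USP18 at 0.54, USP41 at 0.81, OAS2 at 0.85 and IFITM1, which restricts virus entry, at 0.91. USP18 removes ISG15 and damps the receptor, USP41 is a near-identical copy whose reads may be mixed with it, and OAS2 and OAS3 make the 2-5A signal for RNase L. USP18 came close to CMPK2 after the pulses, at 6.79 in repeat and 6.68 in acute, but stood at 1.04 in recovery cells where CMPK2 stood at 1.89 and RSAD2 at 2.43 (mean log2 CPM minus vehicle). Ranking by the largest difference of group means kept 4 of the 5 genes for each member.

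**Figure D4:**
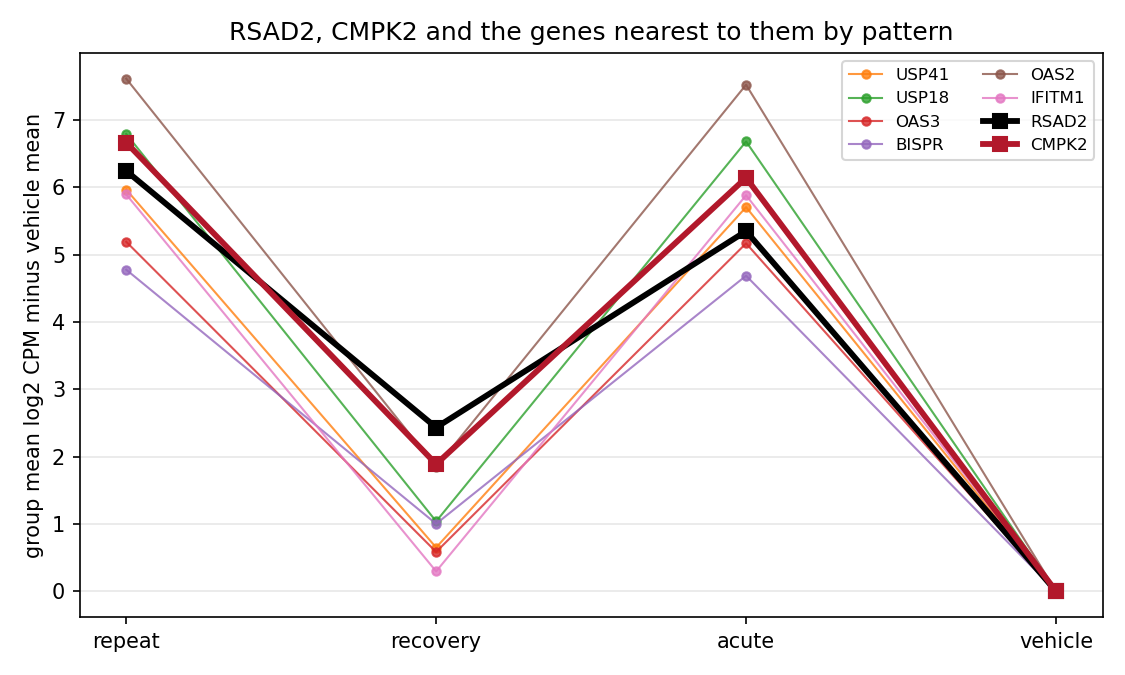
Group means of log2 CPM minus the vehicle mean for RSAD2, CMPK2 and the genes nearest to either by pattern, joined by lines for each gene. RSAD2 at 2.43 and CMPK2 at 1.89 are the 2 highest lines in recovery, and OAS2 at 1.84 is the next.

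Of the 13 genes of the interferon signal route, 7 were called higher and 2 lower in acute than in vehicle cells by edgeR, with a list median of 0.58 on the log2 scale against 0.00 over all genes. Over all genes 22.3% were called higher and 21.5% lower there. The shares were 3.03% and 2.91% in recovery over vehicle and 1.77% and 2.43% in repeat over acute cells. Neither this list nor those below were tested as sets. The transcription factors STAT2 and IRF9 rose by 1.72 and 2.33, and IRF1 and IRF7 by 0.58 and 3.39. The feedback genes USP18 and SOCS1 rose by 6.60 and 1.03, whereas JAK1 fell by 0.33 and the receptor chain IFNAR1 fell by 0.08. In recovery over vehicle cells USP18 at 0.95 ± 0.202 (edgeR adjusted p = 0.0123) and IRF1 at 0.16 ± 0.046 (edgeR adjusted p = 0.0393) were called higher, of which DESeq2 kept USP18 alone (IRF1 adjusted p = 0.0634) and limma on log2 TPM kept neither (adjusted p = 0.0647 and 0.288). In the same comparison 0 were called lower by edgeR, DESeq2 or limma, and 5 were lower at an unadjusted edgeR p under 0.05. In repeat over acute cells 0 were called higher (1 at an unadjusted p under 0.05) and STAT2 was called lower, at -0.15 ± 0.032 (edgeR adjusted p = 0.0100). IRF9 and IRF7 gave -0.02 ± 0.028 and -0.07 ± 0.035 there and did not pass (edgeR adjusted p = 0.784 and 0.330).

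Of 17 genes of pyrimidine nucleotide and CTP synthesis, 6 were called higher and 3 lower in acute than in vehicle cells, with a median of 0.02. The shares over all genes were 22.3% higher and 21.5% lower. The diphosphate kinases NME1 and NME6 rose by 0.29 and 0.21, the CTP synthase CTPS1 rose by 0.28, and the uridine-cytidine kinase UCK1 fell by 0.17 (log2, edgeR). CTPS2 gave 0.02 ± 0.048 (edgeR adjusted p = 0.764), and CMPK1, the cytosolic counterpart of CMPK2, gave 0.02 ± 0.029 (edgeR adjusted p = 0.604). NME4, the mitochondrial diphosphate kinase, fell by 0.15 in acute cells (edgeR adjusted p = 8.69e-06), and it was also the 1 gene called lower in recovery than in vehicle cells, at -0.09 ± 0.025 (edgeR adjusted p = 0.0221), while 0 were called higher (0 also at an unadjusted p under 0.05). In repeat over acute cells 0 were called higher (1 at an unadjusted p under 0.05) and 1 lower, CAD, which opens pyrimidine synthesis, at -0.08 ± 0.024 (edgeR adjusted p = 0.0428), a gene named after its value was seen.

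Among nucleoside monophosphate kinases other than CMPK2, 11 of 12 passed the filter, and 2 were called higher and 6 lower in acute than in vehicle cells, with a median of -0.17. All genes together had 22.3% called higher and 21.5% lower. The adenylate kinase family members AK3, AK4 and AK9 fell by 0.46, 0.42 and 0.40, and the guanylate kinase GUK1 rose by 0.31 (log2, edgeR). In recovery over vehicle cells AK5 at 0.47 ± 0.041 and GUK1 at 0.10 ± 0.028 were called higher and AK4 at -0.17 ± 0.041 lower (edgeR adjusted p = 8.31e-09, 0.0344 and 0.0098), AK5 being named after its value was seen. In repeat over acute cells 0 were called in either direction by edgeR, DESeq2 or limma, with 2 higher and 1 lower at an unadjusted edgeR p under 0.05.

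Of 16 genes of mitochondrial nucleotide supply and DNA copying, 6 were called higher and 3 lower in acute than in vehicle cells, with a median of 0.07. The shares over all genes were 22.3% and 21.5%. The large values were those of TYMP, a thymidine phosphorylase, at 2.81 ± 0.063, and SAMHD1, which degrades deoxynucleotides, at 2.71 ± 0.027 (log2 ± SE). POLRMT, the mitochondrial RNA polymerase, rose by 0.22 and the nucleotidase NT5M fell by 0.26. TK2, the mitochondrial thymidine kinase, gave 0.08 ± 0.046 (edgeR adjusted p = 0.165). In recovery over vehicle cells 1 was called lower (NME4, above) and 0 higher (2 at an unadjusted p under 0.05), SAMHD1 standing at 0.03 ± 0.030 (edgeR adjusted p = 0.666). In repeat over acute cells 0 were called by edgeR, DESeq2 or limma, with 2 higher and 2 lower at an unadjusted edgeR p under 0.05, and SAMHD1 gave -0.06 ± 0.024 (edgeR adjusted p = 0.126).

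On the side of viperin, 5 of 8 other radical SAM enzymes were called higher and 0 lower (1 at an unadjusted p under 0.05) in acute than in vehicle cells, with a median of 0.20. CDK5RAP1 and CDKAL1, which modify tRNAs, rose by 0.25 and 0.23, the lipoate synthase LIAS by 0.25 and the tRNA enzyme TYW1 by 0.24 (log2, edgeR). RSAD1 gave -0.00 ± 0.046 (edgeR adjusted p = 0.954). Among 9 cytosolic iron-sulfur assembly genes, whose proteins mature such clusters, 3 were called higher and 1 lower in acute than in vehicle cells, with a median of 0.01. For both lists the shares over all genes were 22.3% higher and 21.5% lower. CIAO1 rose by 0.12, NDOR1 by 0.14 and CIAPIN1 by 0.10, and NUBP2 fell by 0.10. In recovery over vehicle cells 0 genes of either list were called by edgeR, DESeq2 or limma, and 0 had an unadjusted edgeR p under 0.05. In repeat over acute cells the 1 call was MMS19, at -0.16 ± 0.031 (edgeR adjusted p = 0.00337), named after its value was seen.

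Of 8 reported protein partners of viperin, 1 was called higher and 4 lower in acute than in vehicle cells, with a median of -0.07. Over all genes the shares were 22.3% and 21.5%. FDPS, the farnesyl diphosphate synthase of the mevalonate route, fell by 0.49, IRAK1 by 0.17 and VAPA by 0.12, and GBF1 rose by 0.13 (log2, edgeR). FDPS was also the 1 partner called in recovery over vehicle cells, at -0.18 ± 0.041 (edgeR adjusted p = 0.0243). GBF1 was the 1 partner called in repeat over acute cells, at -0.08 ± 0.022 (edgeR adjusted p = 0.0409), named after its value was seen. Over all 8 lists the medians lay between -0.04 and 0.08 in recovery over vehicle and between -0.03 and 0.04 in repeat over acute cells, against 0.00 over all genes in both. With limma on log2 TPM, 0 genes of these lists were called in repeat over acute cells, where 9 of all genes were called against 761 by edgeR, and in recovery over vehicle cells 2 were called, both of the head-to-head list.

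**Figure D5:**
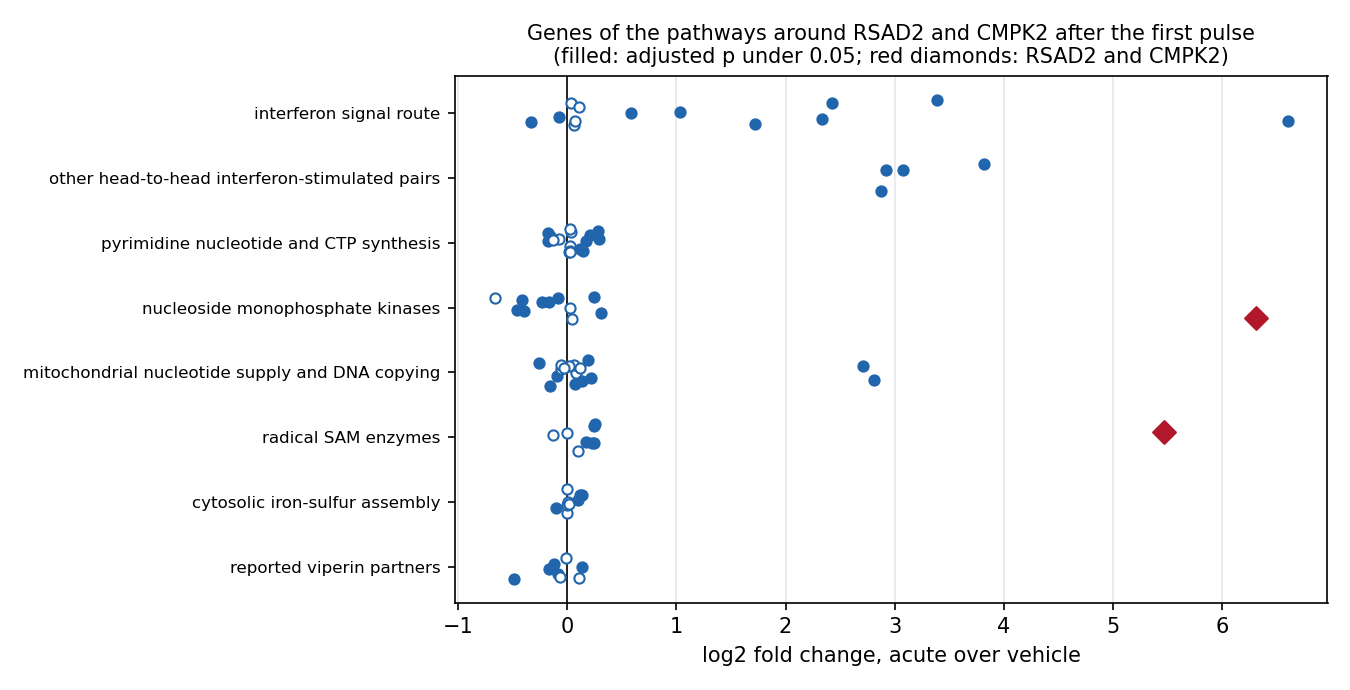
Log2 fold change of acute over vehicle cells for each tested gene of the 8 lists, filled where the adjusted p was under 0.05, with RSAD2 and CMPK2 as red diamonds. CMPK2 at 6.31 and RSAD2 at 5.47 lie apart from the other monophosphate kinases and radical SAM enzymes, of which GUK1 at 0.31 is the highest.

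Most other annotated genes around the pair gave few or no counts, and all but RNF144A are noncoding RNA genes or pseudogenes. Of 26 other annotated genes within 1 Mb that the table lists, 16 had no count in any library and 1 passed the filter. That gene, the ubiquitin ligase RNF144A, gave 22, 22 and 27 counts in repeat, 9, 11 and 21 in recovery, 24, 17 and 15 in acute, and 12, 6 and 4 in vehicle libraries. It was higher in acute than in vehicle cells by 1.43 ± 0.411 (log2 ± SE, edgeR adjusted p = 0.0040). NRIR, a long noncoding RNA 105 bases from CMPK2, gave 3, 2 and 1 counts in repeat, 0 in every recovery, 0, 2 and 1 in acute, and 0, 0 and 1 in vehicle libraries, too few for a comparison.

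Defining markers of the labelled cell type were largely absent. Of 12 cardiomyocyte markers 2 passed the filter, ACTN2 and NPPB, MYL7 was at 0 in every library and TNNT2 reached at most 14 counts. Their summed level was 3.72 to 4.27 CPM in repeat, 2.73 to 3.72 in recovery, 2.53 to 2.59 in acute and 2.04 to 2.33 in vehicle libraries. All 6 fibroblast markers passed, at 4970 to 5221 CPM in repeat, 6263 to 6326 in recovery, 5694 to 5920 in acute and 7234 to 7515 in vehicle libraries. Of 6 leukocyte markers 3 passed, with sums of 236 to 246 CPM in repeat, 113 to 124 in recovery, 224 to 239 in acute and 95.3 to 96.2 in vehicle libraries. Nearly all of that sum was CD68, a lysosomal protein gene, at a mean of 240.1 CPM in repeat, 115.0 in recovery, 230.5 in acute and 93.6 in vehicle libraries, while PTPRC reached at most 1.41 CPM and CD14 at most 0.844 CPM in any library, and CD3E was at 0. The 3 endothelial markers summed to under 1 CPM. The marker sums moved with the regimens and their part in the values of the pair was not tested.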

How the data were processed

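Expression was measured in 12 libraries of AC16 cells, 3 per group. The tool list, per the submitters' processing notes, holds STAR 2.7.11a, featureCounts 2.0.3, Trim Galore 0.6.10, cutadapt 4.3, Picard 2.27.5 and edgeR, and the build is GRCh38.p13, whereas the design text names DESeq2. The authors deposited a table of estimated counts per gene, of whose nonzero values 25.5% were not whole (tolerance 1e-06) although those of RSAD2 and CMPK2 all were, and a table of TPM summing to 1000000 per library. The use of strand in counting is not given in the sources used here. Columns of no sample numbered 0.

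Estimated counts were rounded and fitted in R 4.3.3 with edgeR 4.0.16 (TMM, filterByExpr, robust quasi-likelihood F test, all 12 libraries, a mean per group). Adjusted p is Benjamini-Hochberg over 18119 genes, two-sided, called under 0.05. The common biological coefficient of variation was 2.67%, and p-values measure the spread among these libraries. Alternatives used DESeq2 1.42.0 and limma 3.58.1, the latter on log2 TPM with a pseudocount of 0.1 TPM. Exact tests used Python 3.11.15 with SciPy 1.17.1. Of 60649 identifiers, 60463 were matched to GENCODE release 44. The edgeR fit was tested on simulated data.

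The members, gene lists and motifs were chosen with earlier results of these data known. Named were both members, their 5 nearest genes, every called gene of the signal route, head-to-head and neighbour lists, up to 4 called genes of the other lists by size of change in acute over vehicle cells, and direct enzymatic neighbours of the pair; 1 gene that this rule names is not reported here.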

Additional observations from a re-analysis of the deposited data

How the results depend on the processing

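No fold change of RSAD2 or CMPK2 reversed under the alternatives run. Over 20 alternatives acute over vehicle ran from 4.99 to 6.00 for RSAD2 and from 5.46 to 6.77 for CMPK2, and recovery over vehicle from 1.79 to 2.70 for RSAD2 (highest adjusted p = 4.35e-05, edgeR, DESeq2 or limma). For CMPK2 recovery over vehicle ran from 1.35 to 2.35, the lowest on log2 TPM with limma (adjusted p = 0.067), the alternative that ended its call. On log2 TPM and with a gene length offset, repeat over vehicle was 5.90 and 6.93 for RSAD2 and 6.01 and 7.34 for CMPK2, repeat over recovery was 4.11 and 4.32 for RSAD2, and repeat over acute was 0.55 and 0.57 for CMPK2. The second minus the first response was -0.88 for RSAD2 and -0.79 for CMPK2 on log2 TPM, and -1.78 for CMPK2 with the offset.

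Genes called with limma on log2 TPM and with the offset numbered 4329 and 4394 in acute over vehicle, 3843 and 3916 in recovery over acute, 125 and 174 in recovery over vehicle, 4667 and 4766 in repeat over vehicle, 3830 and 3963 in repeat over recovery, and 9 and 10 in repeat over acute cells, against 761 in the last by edgeR on counts. The cause was not tested. Leaving out 1 library, recovery over vehicle calls ran from 624 (without vehicle replicate 1) to 1167, with 707 and 716 without recovery replicates 2 and 3. Repeat over acute calls ran from 337 to 1218: 499, 377 and 337 without acute replicates 1, 2 and 3, and 1218, 360 and 430 without repeat replicates 1, 2 and 3. For the TPM ratio over the 9 libraries without repeat, F was 3.61, ran from 2.13 to 5.79 without 1 library, and was 12.0 with a pseudocount of 1 TPM and 102.8 on counts. With the repeat libraries, where no test is read, F was 3.20, 2.11 to 5.32, 9.19 and 99.3 in the same order.

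Same-numbered libraries correlated at -0.0816 to 0.0763 in their deviations from group means, and 8 of 12 correlated best with their own number. These small correlations do not settle whether the numbers pair the libraries. With the replicate block, recovery over vehicle was 2.55 for RSAD2 and 2.03 for CMPK2, and 1125 genes were called there and 855 in repeat over acute cells. With limma on log2 TPM most list counts shrank: pyrimidine genes called in acute over vehicle were 3 higher and 1 lower, and radical SAM genes 2 higher. Depth limits the vehicle values, at 10 to 24 counts per gene and library.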
